A study of Mus musculus with 10 samples.

Results

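The nucleic acid helicases described here are 9 genes of the mouse: Aqr, the RecQ family genes Blm, Wrn, Recql, Recql4 and Recql5, the iron-sulfur helicase genes Brip1 and Rtel1, and Pif1. They were taken by gene symbol, matched to Ensembl gene IDs through GENCODE vM21, and all 9 were found among the 55487 genes of each expression table. The series maps R-loops, stretches where RNA pairs with one strand of DNA and displaces the other, in the mouse embryonic stem cell line E14. It holds 10 samples in 6 groups. Of these, 7 are R-loop samples: BisMapR, MapR, a BisMapR sample with RNase A, a MapR sample with GST-MNase and a MapR sample labelled NBSS, which are not analysed here. The remaining group is RNA-seq of E14 cells with 3 replicates, and every value below comes from it. Cells of all groups, per the labels, grew in 15% serum with LIF, 3 µM of a GSK inhibitor and 1 µM of a MEK1/2 inhibitor. With a single group no condition was compared. Nothing in the labels says that the replicates were separate cultures, so their spread may be technical.

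Helicases spend ATP to separate paired strands. The RecQ enzymes unwind forked, recombining and guanine-rich DNA, and loss of human BLM, WRN or RECQL4 causes inherited disorders with genome instability. Brip1 (FANCJ) and Rtel1 belong to a helicase class with an iron-sulfur cluster and act at replication forks, at guanine quadruplexes and, for Rtel1, at telomeres. Pif1 is a helicase of both the nucleus and mitochondria. Aqr encodes Aquarius, an RNA helicase of the spliceosome whose depletion in human cells is known to raise R-loop levels. Embryonic stem cells divide quickly, and replication forks that meet transcription are one place where such enzymes are needed.

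Replicate 1 was the deepest library, with 11420425 estimated counts, against 6467405 in replicate 2 and 5787357 in replicate 3. The labelled cell type was checked with marker genes: all 10 pluripotency markers reached a mean TPM of 1, against 1 of 12 lineage markers (Nes, 1.92 ± 0.393 TPM, SD, n = 3) and 1 of 8 fibroblast markers (Thy1, 2.50 ± 1.15 TPM, SD, n = 3). TPM, transcripts per unit of a fixed library total, corrects the reads of a gene for its length. Other markers lay just under the limit. These were Eomes at 0.953 ± 0.106 and Sox1 at 0.733 ± 0.235 TPM of the lineage list (SD, n = 3). Of the fibroblast list, Pdgfrb had 0.977 ± 0.435 TPM (SD, n = 3), from 203, 96 and 55 counts. The number of markers that pass thus depends on the limit and on the total to which TPM is scaled. The fibroblast collagen gene Col3a1 and the matrix genes Dcn, Lum and Postn had 0 counts in all 3 libraries, and the summed level of the 8 fibroblast markers lay between 1.79 and 4.57 TPM. In bulk RNA a difference in cells of a type cannot be told apart from one in RNA per cell.

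All 9 helicase genes were expressed at a mean of at least 1 TPM, a level reached by 19.8% of all genes and by 44.1% of protein-coding genes. A mean of 5 TPM was reached by 4 of the 9, against 24.1% of protein-coding genes. Blm, Aqr and Rtel1 stood highest, between 10.7 and 14.9 TPM, Recql and Pif1 lay at 5.31 and 4.21 TPM, and Wrn, Brip1, Recql4 and Recql5 lay between 1.77 and 2.44 TPM. The median of log2(TPM + 1) over the 9 genes was 2.35 ± 0.35 (SD, n = 3), beside 2.72 ± 0.29 (SD, n = 3) over the 9683 protein-coding genes at a mean of 1 TPM or more, and 0.53 ± 0.11 (SD, n = 3) over all protein-coding genes. The median helicase gene was thus somewhat lower than the median expressed protein-coding gene, with Blm, Aqr and Rtel1 above that median.

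**Figure D1:**
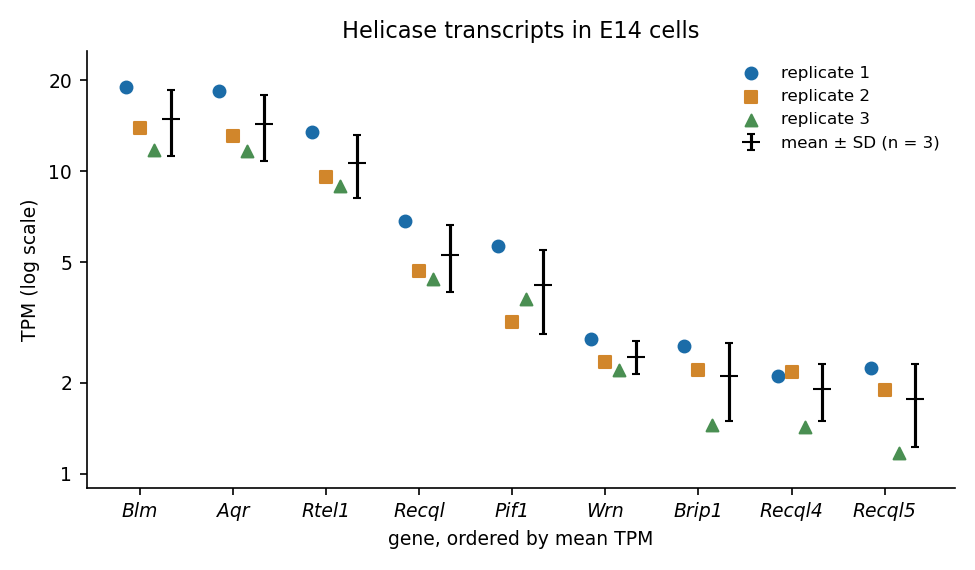
TPM on a log axis of each helicase gene in the 3 RNA-seq replicates (coloured symbols), with the mean and SD in black, genes ordered by mean TPM. Blm, Aqr and Rtel1 lie above the other 6 genes in each replicate, and the last 4 genes lie between 1.17 and 2.79 TPM.

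Among the RecQ genes, Blm led. Blm encodes the helicase that works with topoisomerase III alpha to dissolve joined recombination intermediates, and lies on chromosome 7 from 80454733 to 80535119, minus strand (all positions are GRCm38 from GENCODE vM21). Its level was 18.99, 13.93 and 11.77 TPM in replicates 1, 2 and 3, from 1880, 938 and 871 estimated counts, with a mean of 14.9 ± 3.71 TPM (SD, n = 3). Every other RecQ gene lay below it in each library. Blm was above 79.1% of the protein-coding genes at a mean of 1 TPM or more, and it held 56.5% ± 1.05 (SD, n = 3) of the TPM summed over the 5 RecQ genes.

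Recql (chromosome 6, 142350342 to 142387087, minus strand), which encodes the smallest RecQ helicase, RECQ1, came next of the family. It had 6.83, 4.70 and 4.39 TPM, from 338, 184 and 151 counts, with a mean of 5.31 ± 1.33 TPM (SD, n = 3). Blm exceeded Recql 2.81-fold (geometric mean), with log2 ratios of 1.48, 1.57 and 1.42 in replicates 1, 2 and 3.

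The other 3 RecQ genes were low and close together. Wrn (chromosome 8, 33234384 to 33385527, minus strand), which encodes the Werner syndrome protein, a helicase that also carries an exonuclease, had 2.79, 2.34 and 2.20 TPM from 400, 214 and 218 counts, with a mean of 2.44 ± 0.308 TPM (SD, n = 3). Recql4 (chromosome 15, 76703553 to 76710548, minus strand), which takes part in starting replication, had 2.10, 2.18 and 1.43 TPM from 214, 131 and 101 counts. Recql5 (chromosome 11, 115892595 to 115933477, minus strand), whose protein binds RNA polymerase II, had 2.24, 1.90 and 1.17 TPM from 213, 120 and 84 counts. Recql5 had the lowest mean of the 9, 1.77 ± 0.547 TPM (SD, n = 3), and Recql4 had 1.90 ± 0.412 TPM (SD, n = 3). Recql4 was the lower of the pair in replicate 1 and the higher in the other replicates. The thinnest value is Recql5 in replicate 3, where 84 counts have an exact Poisson 95% interval of 67.0 to 104.0, for counting error only.

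Aqr (chromosome 2, 114101170 to 114187024, minus strand) stood beside Blm. Its level was 18.35, 13.04 and 11.63 TPM from 2230, 1116 and 979 counts, with a mean of 14.3 ± 3.54 TPM (SD, n = 3). It had the most counts of the 9 genes in every library, and by CPM, the count as a share of the library total with no correction for length, it led Blm at 179 ± 14.2 against 153.4 ± 10.1 (SD, n = 3). Aqr and Blm together held 50.7% ± 0.534 (SD, n = 3) of the TPM summed over the 9 genes.

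The pair of iron-sulfur helicase genes lay far apart. Rtel1 (chromosome 2, 181319739 to 181356616, plus strand), the regulator of telomere elongation helicase, had 13.51, 9.55 and 8.93 TPM from 603, 325 and 309 counts, with a mean of 10.7 ± 2.48 TPM (SD, n = 3). Brip1 (chromosome 11, 86058138 to 86201193, minus strand), whose protein binds BRCA1, had 2.65, 2.20 and 1.45 TPM from 453, 260 and 187 counts, with a mean of 2.10 ± 0.606 TPM (SD, n = 3). Rtel1 exceeded Brip1 5.15-fold in TPM. By CPM the gap was smaller, 52.1 ± 1.67 for Rtel1 and 37.4 ± 4.41 for Brip1 (SD, n = 3). The difference between these scales is the length assigned to each gene, given below.

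Pif1 (chromosome 9, 65587160 to 65595967, plus strand) had 5.67, 3.18 and 3.78 TPM from 337, 197 and 145 counts, with a mean of 4.21 ± 1.30 TPM (SD, n = 3). It was the middle gene of the 9. Replicate 2 was its lowest by TPM and its highest by CPM, at 29.5, 30.5 and 25.1 CPM in replicates 1, 2 and 3.

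The order of the levels was read from ratios within a library, since the total to which TPM is scaled cancels in them. A pair was taken to differ beyond its spread when its 3 log2 ratios had the same sign and their mean exceeded 2 SD. With 3 replicates a two-sided sign-flip permutation test cannot go below p = 0.25, so no test was made. By that criterion 29 of the 36 pairs differed, but only 3 of the 8 pairs of neighbours did: Aqr above Rtel1, Rtel1 above Recql, and Pif1 above Wrn. Rtel1 exceeded Recql by 1.01 ± 0.02 and Aqr exceeded Rtel1 by 0.42 ± 0.04 on the log2 scale (SD, n = 3).

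Blm and Aqr could not be ordered. Their log2 ratio was 0.05, 0.10 and 0.02 in replicates 1, 2 and 3, a mean of 0.05 ± 0.04 (SD, n = 3). Recql and Pif1 also lay within their spread, at 0.35 ± 0.19 (SD, n = 3). At the low end Wrn did not differ beyond its spread from Brip1, Recql4 or Recql5, nor Recql4 from Brip1 or Recql5, while Brip1 exceeded Recql5 by 0.25 ± 0.05 on the log2 scale (SD, n = 3). From top to bottom Blm exceeded Recql5 by 3.10 ± 0.23 on the log2 scale (SD, n = 3), which is 8.55-fold.

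**Figure D2:**
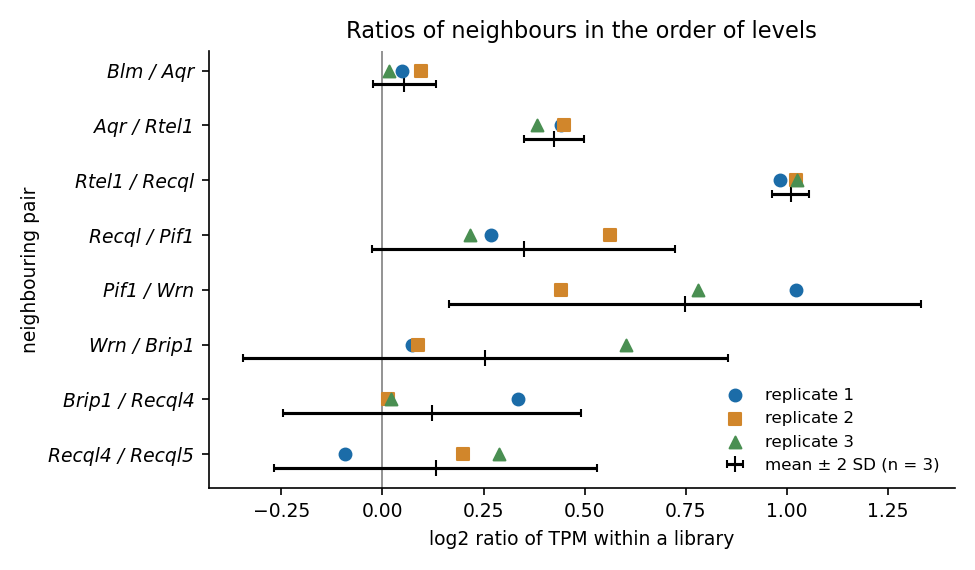
Log2 ratio of TPM within each library for the 8 neighbouring pairs in the order of mean TPM, with symbols for the replicates and black bars for the mean ± 2 SD (n = 3). The bars of 3 pairs stay clear of 0, and those of the other 5 pairs reach or cross it.

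The lengths behind these TPM values differed between genes and, for Pif1, between libraries. The length given in the tables is an average over the annotated transcripts of a gene, weighted by the estimated share of each in the gene's abundance. Rtel1 has 21 transcripts in the tables, 10 of them annotated as protein-coding and 8 as retained-intron transcripts. Its assigned length was 1784, 1939 and 1957 nt, a mean of 42.6% of its longest transcript of 4448 nt. Recql (12 transcripts) stood at 55.5% of its longest transcript and Pif1 at 67.6%, whereas the other 6 genes stood at 80.5% or more. Rtel1, Recql and Pif1 are thus the members whose TPM leans most on short transcripts.

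The levels were also scaled by the longest annotated transcript. Only the lengths of the 9 genes were replaced and the TPM total was kept, so a value could fall but not rise. On this scale Rtel1 fell from 10.7 to 4.30 ± 0.748 TPM (SD, n = 3), and Recql and Pif1 came to 2.84 ± 0.645 and 2.70 ± 0.641 TPM (SD, n = 3). Aqr then led with 13.5 ± 3.38 TPM and Blm followed with 11.9 ± 2.73 TPM (SD, n = 3), Aqr being the higher in each library. The order of the other 7 genes by mean stayed as before. Pif1 was assigned 2330, 3413 and 2155 nt in replicates 1, 2 and 3, a ratio of 1.58 between longest and shortest, and the next highest was Recql4 at 1.17. Replicate 2, with the longest assignment, was the library in which Pif1 TPM was lowest and its CPM highest. Scaled by the longest transcript, Pif1 had 3.31, 2.77 and 2.03 TPM, beside 2.41, 1.84 and 1.87 TPM for Wrn. The gap between them was then smallest in replicate 3.

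**Figure D3:**
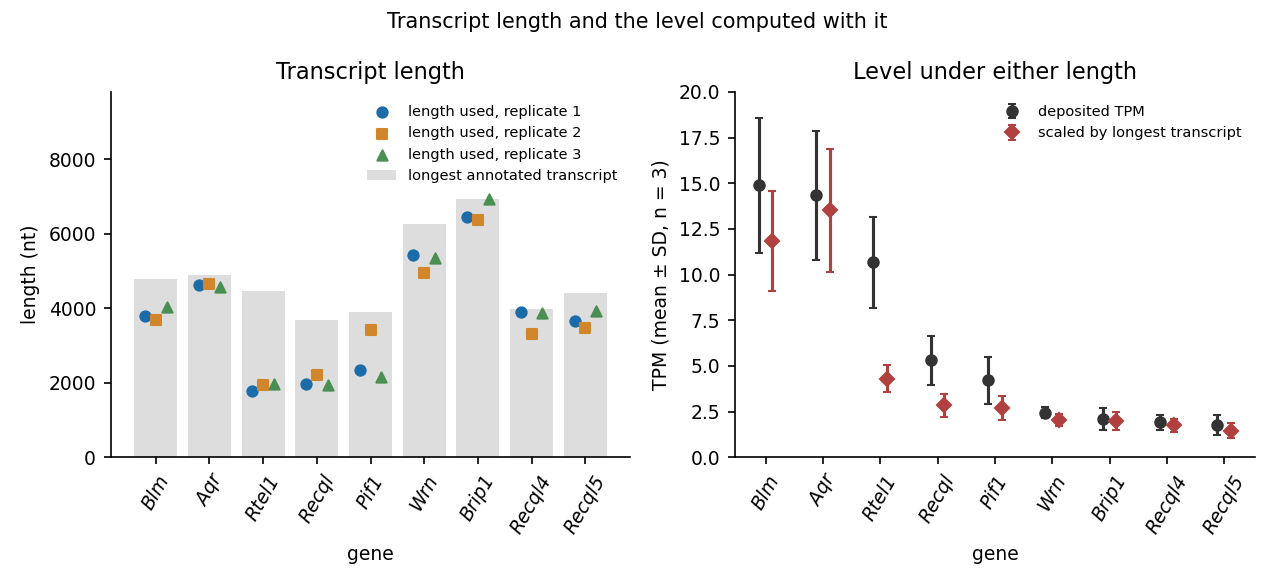
Left, length in nt assigned to each helicase gene in the 3 replicates (symbols) over the length of its longest annotated transcript (grey bars). Right, mean ± SD (n = 3) of the deposited TPM and of TPM scaled by the longest transcript, where Rtel1 moves from 10.7 to 4.30 while Aqr moves from 14.3 to 13.5. The TPM total was kept for the second scale, so its values could fall but not rise.

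TPM was highest in replicate 1 for 8 of the 9 genes and in replicate 2 for Recql4. Summed over the 9 genes it was 73.1, 53.0 and 46.8 TPM in replicates 1, 2 and 3, while the summed CPM was 583.9, 538.9 and 526.1. Genes of effective length under 100 nt took 60.3%, 65.8% and 63.9% of all TPM in the same libraries. With those genes left out of the TPM total, 8 of the 9 helicase genes were still highest in replicate 1. By CPM, 4 were highest in replicate 1, 3 in replicate 2 and 2 in replicate 3. These counts depend on the scaling. With the library totals rescaled by TMM, as in the variation test below, Aqr alone was highest in replicate 1, at 186.8, 168.2 and 184.4 CPM. The coefficient of variation over replicates was 12.6% to 30.9% by TPM, 7.39% to 28.3% by TPM without the short genes, and 3.20% to 13.7% by CPM. As a share of the summed TPM, Blm held 25.8% ± 0.566 and Rtel1 18.5% ± 0.547 (SD, n = 3), and Aqr held 25.1%, 24.6% and 24.9% in replicates 1, 2 and 3. The shares of lower genes varied more for their size, with 7.28% ± 1.12 for Pif1, 3.62% ± 0.524 for Brip1, 3.35% ± 0.668 for Recql4 and 3.05% ± 0.541 for Recql5 (SD, n = 3).

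Variation between replicates was tested across all genes. In edgeR's goodness-of-fit test, which asks whether a gene varies more than genes of similar abundance, 1.84% of the 12577 genes tested passed at a Benjamini-Hochberg adjusted p under 0.05. None of the 9 helicase genes did (0 of 9, each with an adjusted p of 1.00 by edgeR), and 0 of 9 had an unadjusted p under 0.05. A missed threshold does not show that the replicates were equal.

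Replicate 3 had fewer counts in long genes throughout the data, and the helicase genes are mostly long. All deviations here are in log2 CPM after the TMM scaling. In the length decile of Wrn, from 4695 nt upward, the median deviation of replicate 3 from the gene mean was -0.15. Wrn went the other way, with deviations of -0.08, -0.13 and 0.21 in replicates 1, 2 and 3. Blm and Aqr also deviated upward in replicate 3, by 0.09 and 0.04, where the median of their decile was -0.09. Recql4 and Recql5 share that decile and had 0.01 and -0.12 in replicate 3, so Recql5 lay below the median. Brip1, in the same decile as Wrn, had -0.09 in replicate 3, between Wrn and the decile's median. The direction depends on the scaling for Aqr and Blm. By CPM of the library total without TMM, Aqr was lowest in replicate 3, at 195.3, 172.6 and 169.2 in replicates 1, 2 and 3. Blm had 164.6, 145.0 and 150.5 on that scale, so replicate 3 lay below its mean of 153.4. Wrn was highest in replicate 3 on both scales. After a smooth correction for length the lowest adjusted p of the 9 was 0.962 by edgeR, that of Wrn.

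**Figure D4:**
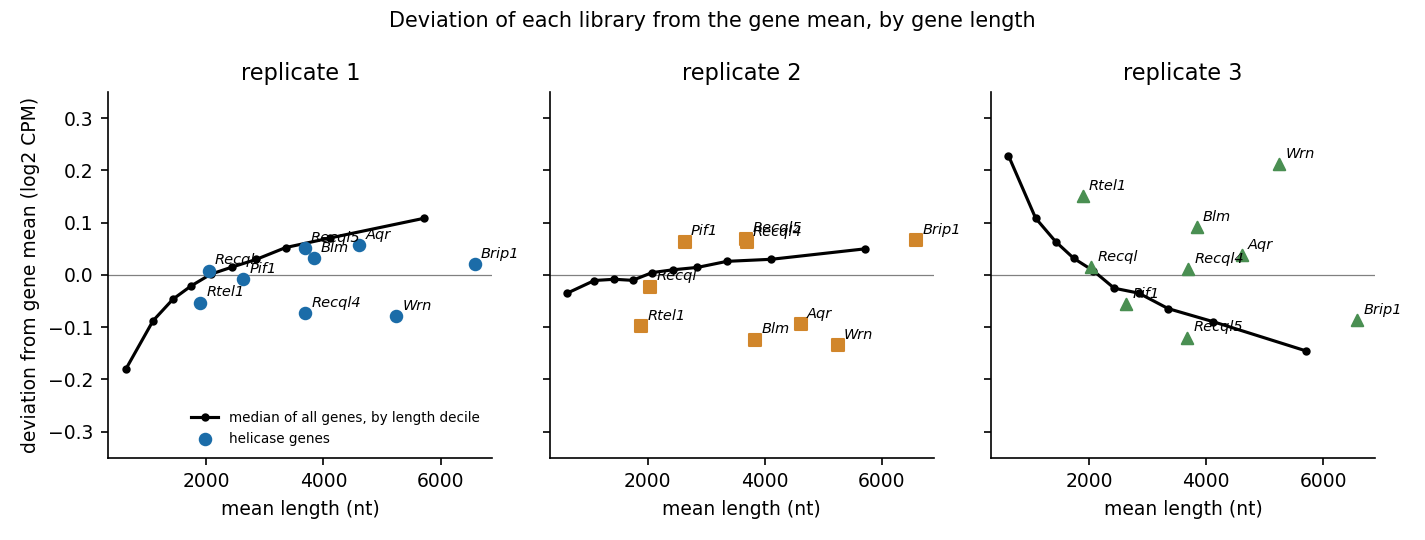
Deviation of each helicase gene from its own mean in log2 CPM after TMM scaling (coloured symbols), against its mean length in nt. Each replicate has a panel, and the black line is the median of all tested genes by length decile. In replicate 3 the line falls from 0.23 to -0.15 with length, Wrn lies at 0.21 and Brip1 at -0.09.

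Genes that start close to a helicase gene on the opposite strand were listed because the series concerns strand-specific R-loop mapping at transcribed regions. Of the 9 genes, 5 have such a start within 1000 bp, beside 29.2% of protein-coding genes at a mean of 1 TPM or more and 18.4% of all protein-coding genes. They are Recql, Wrn, Brip1, Recql4 and Recql5. Blm, Aqr, Rtel1 and Pif1 have none. These include the 3 highest genes, but a relation between level and an opposed start was not tested.

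In 3 of the 5 pairs the opposed gene had the higher TPM in each library. Golt1b, a Golgi transport gene that starts 134 bp from Recql, had 14.74, 15.47 and 11.65 TPM and exceeded Recql in each library, by 1.41 ± 0.30 on the log2 scale (SD, n = 3). Sap30bp, a gene for a binding partner of the SAP30 corepressor protein, starts 195 bp from Recql5 and had 5.96, 4.87 and 8.44 TPM. It was above Recql5 in each library by 1.87 ± 0.85 on the log2 scale (SD, n = 3), and the gap was widest in replicate 3, where Recql5 was lowest. Lrrc14, 75 bp from Recql4, had 2.30, 2.55 and 2.28 TPM, above Recql4 by 0.34 ± 0.29 on the log2 scale (SD, n = 3), which is within 2 SD.

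In the remaining pairs the helicase gene had the higher TPM. Purg, which starts 798 bp from Wrn, had 1.57, 1.5 and 1.55 TPM and lay below Wrn, at a mean log2 ratio of -0.66 ± 0.16 (SD, n = 3). Brip1os, a noncoding gene annotated as antisense that starts 177 bp from Brip1, had 2.38, 2.12 and 1.25 TPM beside 2.65, 2.20 and 1.45 for Brip1. The mean log2 ratio of Brip1os to Brip1, -0.14 ± 0.08 (SD, n = 3), was within 2 SD of 0, and replicate 3 was the lowest library of both.

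Gene spans overlap in 6 of the 9 loci. Recql5 and Sap30bp share 196 bp at their starts, Recql4 and Mfsd3 share 687 bp, and Recql and Pyroxd1 share 12916 bp, all on opposite strands. The strand setting of the counting is not given in the sources used here, so reads from shared exonic stretches could have been counted for either gene. Pyroxd1 had 2.22 ± 0.433 TPM and Mfsd3 1.75 ± 0.946 TPM (SD, n = 3). Smim5, Smim6 and Recql5os1, which lie inside the Recql5 span, had 0 counts in every library. All 27 estimated counts of the 9 genes were whole numbers to 2 decimals.

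Promoter windows of 300 bases, 250 before and 50 after the RefSeq start (GRCm38.p6), were present for 6 of the 9 genes: Blm, Aqr, Rtel1, Recql, Brip1 and Recql5. Those of Blm and Aqr, the highest genes with no opposed start, and of Recql and Brip1, whose opposed starts fall inside the window, are printed 5′ to 3′ on the strand of the gene. Capitals mark matches on either strand to the GC box GGGCGG, the CCAAT box CCAAT and the ETS core CCGGAAG, and a run of capitals can hold overlapping matches. The windows are chr7:80534949-80535248 (minus) for Blm, chr2:114175290-114175589 (minus) for Aqr, chr6:142387038-142387337 (minus) for Recql and chr11:86201144-86201443 (minus) for Brip1.
Blm: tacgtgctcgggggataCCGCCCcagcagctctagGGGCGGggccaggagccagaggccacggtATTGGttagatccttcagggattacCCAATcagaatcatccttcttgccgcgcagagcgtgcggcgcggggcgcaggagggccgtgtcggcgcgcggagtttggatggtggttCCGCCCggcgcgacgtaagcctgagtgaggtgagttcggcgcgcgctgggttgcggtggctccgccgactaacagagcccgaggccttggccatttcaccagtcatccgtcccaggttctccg
Aqr: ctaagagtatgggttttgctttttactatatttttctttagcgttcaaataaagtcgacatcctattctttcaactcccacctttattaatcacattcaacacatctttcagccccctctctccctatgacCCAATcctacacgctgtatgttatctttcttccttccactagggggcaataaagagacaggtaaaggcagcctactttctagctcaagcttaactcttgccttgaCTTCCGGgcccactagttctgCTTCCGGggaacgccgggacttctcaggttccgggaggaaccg
Recql: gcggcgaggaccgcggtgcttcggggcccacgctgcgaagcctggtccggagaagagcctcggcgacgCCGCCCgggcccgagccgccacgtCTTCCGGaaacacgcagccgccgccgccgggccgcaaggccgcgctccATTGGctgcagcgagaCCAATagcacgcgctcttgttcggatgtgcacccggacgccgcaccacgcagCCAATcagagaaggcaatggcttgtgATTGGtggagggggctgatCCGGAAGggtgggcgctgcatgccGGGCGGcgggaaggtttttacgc
Brip1: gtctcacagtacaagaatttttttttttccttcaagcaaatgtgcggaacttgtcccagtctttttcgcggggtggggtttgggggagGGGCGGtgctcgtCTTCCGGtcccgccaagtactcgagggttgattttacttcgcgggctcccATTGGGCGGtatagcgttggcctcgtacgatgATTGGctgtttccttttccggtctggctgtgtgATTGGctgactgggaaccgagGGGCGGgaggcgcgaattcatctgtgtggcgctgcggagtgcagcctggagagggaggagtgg

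Blm and Aqr, level in TPM, had unlike windows. That of Blm had 66.0% G and C and 32 CpG dinucleotides, and that of Aqr 45.7% and 9, beside a median of 52.7% G and C over 32817 windows. The RefSeq start of Aqr lies 11685 bp inside the outermost GENCODE start, and no opposed start lies within 1000 bp of either. Recql has 2 windows in the table. The printed one had the highest G and C content of the 7 windows, 70.0%, with 39 CpG, and the other had 66.0% and 32, with 3 CCAAT boxes, 2 GC boxes and 1 ETS core. The printed Recql window held 4 CCAAT boxes, 2 GC boxes and 2 ETS cores, and that of Brip1 held 3, 3 and 1, with a CCAAT box and a GC box overlapping. Blm held 3 GC boxes and 2 CCAAT boxes with no ETS core, and Aqr 2 ETS cores and 1 CCAAT box with no GC box. At least 1 match was present in 5 of the 6 genes for each of the 3 motifs, beside 35.6% of all windows for the GC box, 37.4% for the CCAAT box and 8.86% for the ETS core. The TATA box TATAAA was in none of the 6 genes' windows and in 13.6% of all windows. Shares over the windows of expressed genes alone were not computed, so no enrichment in these genes can be read from this. A match is a description of the letters and not a bound site.

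Partner genes came from 6 lists of 56 genes: 55 reached a mean of 1 TPM, 39 reached 5 TPM, 12 lay above Blm, and 4 lay below Recql5. RNA of the 3 genes listed for the complex in which BLM works was measured in every library. Top3a, the topoisomerase of that complex, had 3.92, 3.53 and 2.02 TPM, and Rmi1, a scaffold subunit, had 8.01, 6.08 and 4.26 TPM. Rmi2, the small subunit, was the lowest at 1.32, 0.92 and 0.76 TPM. Blm therefore stood above each of its 3 complex partners in every library. Rpa1, the large subunit of the single-strand binding protein RPA, had 30.5 ± 6.22 TPM (SD, n = 3).

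Of the 13 other DNA helicases, 12 reached a mean of 1 TPM and none had a mean above that of Blm. Fancm, a Fanconi anaemia translocase, was highest at 15.33, 11.22 and 12.40 TPM, above Blm in replicate 3 only. Ddx11, an iron-sulfur helicase like Brip1 and Rtel1, had 7.70, 7.04 and 4.27 TPM, and Ercc2, the XPD subunit of the transcription factor TFIIH, had 4.66, 4.56 and 3.56 TPM. Both lay between Brip1 and Rtel1 in each library. Hfm1, a meiotic helicase, was lowest at 0.303 ± 0.175 TPM (SD, n = 3), from 27, 5 and 10 counts. All 7 fork remodelling translocases reached 1 TPM, from Smarcal1 at 4.67 ± 1.25 to Atrx at 19.4 ± 3.62 TPM (SD, n = 3).

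The partners of Aquarius in the spliceosome, the intron-binding complex, all had a lower mean TPM than Aqr. Xab2 was closest, with 15.26, 11.66 and 12.57 TPM, below Aqr in replicates 1 and 2 and above it in replicate 3, while Ppie had 10.49, 8.64 and 9.23, Isy1 4.55, 6.23 and 6.21, and Zfp830 2.18, 1.57 and 1.99 TPM. Of the helicases related to Aqr by sequence, Upf1, the central factor of nonsense-mediated decay, had 12.19, 9.78 and 4.82 TPM. Helz, another relative, had 10.36, 7.43 and 3.24 TPM and was the 1 gene of the 55 list genes tested that varied beyond the trend (adjusted p = 0.0443 by edgeR; 0.173 after the length correction, and 0.0452 to 0.999 over all alternatives). Nuclease and repair partners ran from Ercc4 at 2.33 ± 0.515 to Xrcc5 at 24.3 ± 2.00 TPM (SD, n = 3), and all 15 reached 1 TPM.

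RNA helicases tied to R-loops had the highest median of the 6 partner lists. Their median was 4.61 ± 0.31 in log2(TPM + 1) (SD, n = 3), and 4 of the 6 lay above Blm. Dhx9, which unwinds RNA and DNA hybrids, had 62.97, 51.01 and 48.55 TPM, and Ddx5 had 91.6 ± 17.5 TPM (SD, n = 3). These lists were chosen with earlier results of the data known, and no difference between lists was tested.

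**Figure D5:**
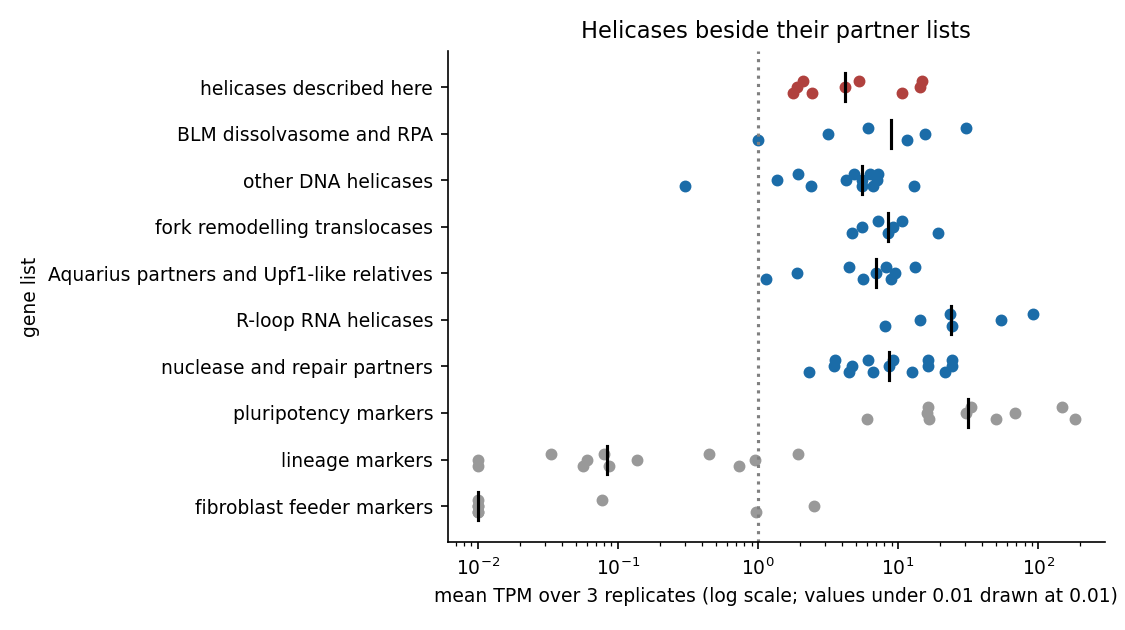
Mean TPM over the 3 replicates on a log axis for each gene of the 9 helicases (red), the 6 partner lists (blue) and the 3 marker lists (grey), with the list median as a black bar and 1 TPM as a dotted line. The helicases run from 1.77 to 14.9 TPM, the R-loop RNA helicases from 8.10 to 91.6 TPM.

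The protein-coding genes nearest in level to the ends of the order were found by Euclidean distance in log2(TPM + 1) over the 3 replicates. The nearest to Blm was Exosc9, with 18.98, 14.04 and 11.83 TPM at a distance of 0.01. The nearest to Recql5 was Zfp937, with 2.29, 1.92 and 1.17 TPM at a distance of 0.02. With 3 libraries of 1 group such closeness describes level alone, and 199 and 272 protein-coding genes lay within a distance of 0.25 of Blm and Recql5.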

How the data were processed

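RNA-seq of E14 cells gave 1 table for each of 3 replicates. Per the labels' protocols, rRNA was removed with FastSelect and cDNA was made with a directional kit. Per the submitters' processing notes, STAR, RSEM and build mm10 were used, with no versions; annotation release and strand setting are not given in the sources used here. Per the file headers, the authors deposited for each gene an estimated count without normalization, a TPM and an FPKM value scaled by effective length, and lengths in nt. Of 55487 gene IDs, 55227 matched GENCODE vM21 (GRCm38); the others held 0.018% of counts.

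Levels are deposited TPM. Medians and distances use log2(TPM + 1), and ratios between genes are log2 of TPM with no pseudocount. A floor of 3 counts is 0.263, 0.464 and 0.518 CPM in replicates 1, 2 and 3; floors and intervals cover counting error only. Estimated counts were rounded and tested across all genes in edgeR 4.0.16 (TMM, filterByExpr, trended dispersion, intercept-only design, Benjamini-Hochberg adjustment), after the procedure was tested on simulated data. Alternatives, some with DESeq2 1.42.0 size factors, are in the closing section. Python 3.11.15 was used otherwise. The named genes are the 9 helicases, the listed partners and markers, opposed or overlapping genes, and the nearest gene to the highest and lowest helicase. The members and lists were chosen with earlier results of these data known.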

Additional observations from a re-analysis of the deposited data

How the results depend on the processing

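The 5 summary results were recomputed under 31 alternatives. Of these, 25 moved a value by less than the replicate SD or a count by no more than 1.5 times, 6 moved further and 0 reversed. The number of helicase genes at the level limit, 9, became 7 with a mean of at least 2 TPM and 4 with at least 5 TPM, because the limits are higher. The median log2(TPM + 1), 2.35, became 3.66 with FPKM and 3.61 with TPM over genes of effective length of at least 100 nt; both replace the total to which values are scaled. The log2 ratio of Blm to Recql5, 3.10, became 2.52 with a pseudocount of 1, which by construction shrinks ratios of low values. The share of Blm in the summed TPM, 25.8%, became 27.9% with CPM and 27.9% with the longest transcript length. As shares within a library, these scales differ from TPM only in the length applied to the counts of each gene. Aqr, and not Blm, had the highest mean on both, at 179 against 153.4 CPM and 13.5 against 11.9 TPM. The share was followed for Blm alone, so this change of leader is not among the moves counted above. Leaving out each replicate in turn moved none of the 5 results beyond its limit. None of the 9 genes varied beyond the trend under any of the 7 alternatives to that test. Over all genes, the 232 that varied beyond the trend became 89, 63 and 93 without replicates 1, 2 and 3, where 2 libraries remain, and 172 to 289 under the other alternatives. Depth limits the low genes most: Recql5 had 84 counts in replicate 3.

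No paired analysis was possible because no 2 groups were compared: RNA-seq was the sole group analysed here, and the BisMapR and MapR samples that share replicate numbers 1 and 2 with it are not analysed here.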
